A study of Canis lupus familiaris with 12 samples.

Results

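The genes described here code for the cytosolic ribosome and for the factors that start and extend translation on it. They were chosen by name, as probes with 1 gene symbol reading RPL or RPS and a digit, RPLP0, RPLP1, RPLP2 or RPSA, or a symbol that starts with EIF or EEF, leaving out the RPS6K kinases. The rule found 48 genes of the 4325 genes named on the array, read by 104 spots of 55 cDNA clones: 11 proteins of the large ribosomal subunit, 10 of the small subunit, 25 genes named for initiation factors and 2 elongation factors. The arrays were printed with human clones and the RNA came from MDCK, an epithelial cell line from dog kidney, so each value is a signal across species. RNA of MDCK transfected with Snail, with Slug or with E47, which are repressors of the E-cadherin gene CDH1, was set against RNA of the MDCK-CMV control line on 2-colour arrays. Each transfectant gave 2 numbered samples, and each sample was hybridised on 2 arrays with the dyes exchanged, which makes 4 arrays per transfectant and 12 in all. The labels do not state the constructs, the number of clones behind a transfected line, its time in culture or whether samples 1 and 2 grew separately, so p-values measure the spread between these samples, which may be technical.

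A ribosome is built from a small subunit, which reads the mRNA, and a large subunit, which joins amino acids. Initiation factors load the small subunit with the first tRNA, scan for the start codon and release when the large subunit joins, and elongation factors then deliver tRNAs and move the ribosome along. Ribosomal protein genes are among the most highly expressed genes of growing cells, and their mRNAs start with a pyrimidine tract through which mTOR signalling controls their translation. The arrays measured mRNA and hold no information on how much protein was made.

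All values are log2 ratios of transfectant over control, and their direction is assumed. Arrays of samples 1 and 2 with the same dye correlated, as deposited, at -0.60 and -0.38 in Snail and at -0.51 and -0.47 in Slug. In E47 they correlated at -0.66 for the arrays titled Cy5 and at 0.46 for those titled Cy3, so the sign did not follow the labelled dye. Both arrays of Snail 2 and of Slug 1 and the E47 2 array titled Cy5 were therefore multiplied by -1, and the sign of each transfectant is the one that puts CDH1 below the control. The relative signs of the 4 arrays came out the same when the 48 genes and CDH1 were left out. With a transfectant's sign turned, its higher and lower genes change places, while genes that lie on the side of CDH1 stay on it.

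Array medians of the 48 genes lay between -0.28 and -0.01, and those of all genes between -0.10 and 0.09. The number of members with a value ranged from 45 to 48 per array. Each number rests on ratios with no signal level behind it, so whether the marker genes of an epithelial cell were present could not be checked. Of the epithelial markers tested (CDH1, EPCAM, KRT7, KRT8, KRT18 and KRT19, 5 of 6 in Snail and E47 and 6 in Slug), CDH1 lay below the control by the choice of sign, and 1 other marker passed on the same side in each transfectant, KRT7 in Snail and E47 and KRT19 in Slug. Of the markers of other cells, COL1A2 was higher in each transfectant, THY1 was lower in Snail, PTPRC was lower in Slug, and none of the 3 endothelial markers tested passed. Their part in the results was not tested.

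Samples 1 and 2 of the 48 genes differed on the log2 scale by a median of 0.242 for Snail, 0.183 for Slug and 0.191 for E47, against 0.225, 0.206 and 0.18 over all genes. Of the tested members, 22 of 45 in Snail, 25 of 45 in Slug and 21 of 41 in E47 lay on 1 side of the control on all 4 arrays. These are 48.9%, 55.6% and 51.2%, where all genes gave 36.3%, 41.6% and 32.5%.

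**Figure D1:**
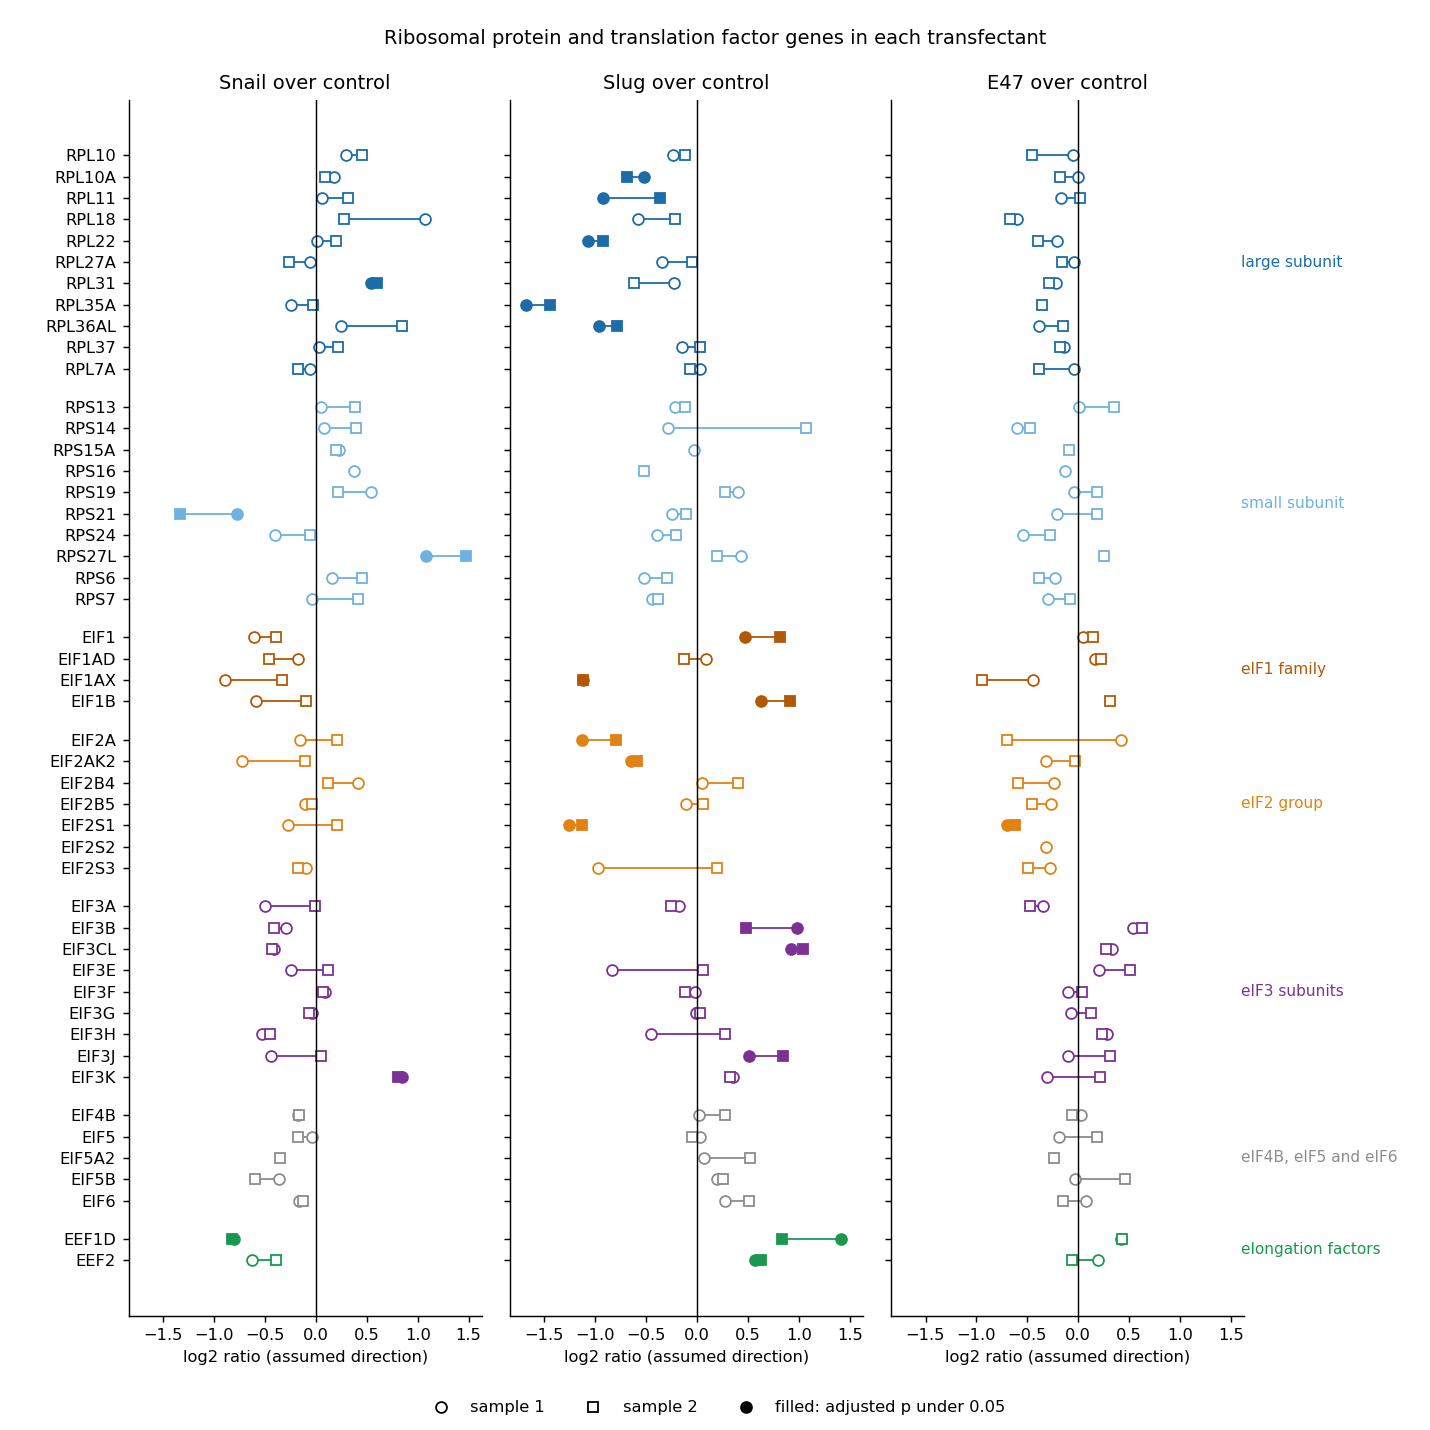
Log2 ratio over the control (x axis, assumed direction) of each of the 48 genes, in rows by role, with a panel per transfectant; circles are sample 1, squares sample 2, a line joins them, and filled symbols passed adjusted p of 0.05. The large subunit genes sit mostly to the left of 0 in Slug (1 of 11 lies above it in each sample), with RPL35A at -1.68 and -1.44, and EEF1D lies at -0.80 and -0.82 in Snail and at 1.41 and 0.83 in Slug.

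The comparison of each transfectant with the control asks which of these genes it expresses at another level. In Slug 16 of 45 members tested passed, 7 higher and 9 lower (limma, Benjamini-Hochberg adjusted p under 0.05 over all genes tested). The background in that comparison was 21.8% of 4053 genes, 12.2% higher and 9.62% lower. In Snail 5 of 45 passed, 3 higher and 2 lower, with a background of 7.22% (2.15% higher and 5.07% lower), and in E47 1 of 41 passed, lower, with a background of 5.30% (3.81% higher and 1.49% lower). The median absolute log2 ratio of the members was 0.39 in Slug, 0.23 in Snail and 0.21 in E47, where all genes had 0.25, 0.18 and 0.16. Slug arrays had wider ratios than the others over all probes (SD 0.640 to 0.695 against 0.446 to 0.586). With all arrays scaled to 1 spread, 9 members passed in Slug, 3 higher and 6 lower, and 3 passed in E47, 1 higher and 2 lower.

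The comparisons between transfectants ask where the responses differ. Between Snail and Slug 16 of 44 members passed, 9 higher in Snail and 7 lower, with a background of 13.2% of 3675 genes (4.08% higher and 9.14% lower). Between Snail and E47 1 of 41 passed, lower in Snail (background 2.57%, 0.166% higher and 2.41% lower). Between Slug and E47 0 of 41 passed in limma (background 0.786%, 0.262% higher and 0.524% lower), and 15 of 41 had an unadjusted p under 0.05, as did 16.2% of all genes. Against the control, 24.3% of all genes had an unadjusted p under 0.05 in Snail, 36.2% in Slug and 20.4% in E47. These comparisons rest on the assumed signs: with 1 transfectant of the pair turned, 10 of 44 members passed between Snail and Slug (background 18.3%), 2 of 41 between Snail and E47 (9.87%) and 16 of 41 between Slug and E47 (25.8%). The comparisons with the control share the control line.

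Of the large subunit proteins, 5 of 11 fell in Slug and none rose (all genes 9.62% and 12.2%). In Snail 1 rose and none fell (all genes 2.15% and 5.07%). In E47 0 of 10 tested passed, and 2 had an unadjusted p under 0.05 in limma (all genes 20.4%). All 11 lay below the control in Slug, with values from -1.56 to -0.02 and a median of -0.42, while all genes had a median of 0.02. In E47 all 10 tested lay below the control, from -0.63 to -0.08 (median -0.24, all genes 0.01). In Snail 8 of 11 lay above it, from -0.16 to 0.67 (median 0.14, all genes -0.05). With the arrays titled Cy5 alone, 10 of 11 lay below the control in Slug and 9 of 10 in E47, and with those titled Cy3 alone 11 of 11 and 9 of 11. Without Slug sample 1 or without sample 2 it was 10 of 11.

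RPL35A (Entrez 6165), a protein of the large subunit, had the lowest value of all members. It stood at -1.68 and -1.44 in samples 1 and 2 of Slug, at -0.24 and -0.03 in Snail and at -0.36 in E47 2. For E47 1 only 1 of 2 arrays had a value. The 4 Slug arrays lay between -1.91 and -1.40, below every Snail and E47 array with a value. Its fall in Slug was -1.56 ± 0.14 (SE, n = 2; adjusted p = 0.00105 in limma), which is 2.96-fold. Here and below the SE is that of the fit, which pools the spread over the 3 transfectants, and n counts the samples per transfectant. RPL22 (Entrez 6146), a large subunit protein that also binds RNA outside the ribosome, stood at -1.07 and -0.92 in Slug, 0.01 and 0.20 in Snail and -0.21 and -0.40 in E47. Its Slug arrays, from -1.17 to -0.89, did not overlap those of Snail, from -0.12 to 0.22, or those of E47, from -0.56 to -0.19. How often arrays of 2 transfectants do not overlap was not counted over all genes. The difference of RPL22 between Slug and E47 was -0.69 and did not pass (adjusted p = 0.12 in limma). The fall in Slug was -1.0 ± 0.13 (SE, n = 2; adjusted p = 0.0023).

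RPL36AL (Entrez 6166), encoded by a copy of the RPL36A gene with a nearly identical product, stood at -0.96 and -0.79 in Slug, 0.25 and 0.85 in Snail and -0.39 and -0.15 in E47. The Snail arrays (0.17 to 0.96) lay above 0 and those of Slug (-1.31 to -0.60) and E47 (-0.49 to -0.12) below it. Its fall in Slug was -0.87 ± 0.16 (SE, n = 2; adjusted p = 0.00968), and signal from RPL36A cannot be told apart from it where a clone binds both. RPL10A (Entrez 4736), another large subunit protein, had -0.52 and -0.69 in Slug, a mean of -0.60 ± 0.12 (SE; adjusted p = 0.0126 in limma). RPL11 (Entrez 6135), which also binds MDM2 when ribosome assembly is disturbed, had -0.92 and -0.36, a mean of -0.64 ± 0.16 (SE; adjusted p = 0.0271 in limma).

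RPL31 (Entrez 6160) was the large subunit gene that passed in Snail. It stood at 0.54 and 0.60 in Snail, -0.23 and -0.62 in Slug and -0.22 and -0.29 in E47, and the Snail arrays lay between 0.42 and 0.69, above those of Slug (-1.13 to -0.10) and E47 (-0.41 to -0.03). The difference of RPL31 between Snail and E47 was 0.82 and did not pass (adjusted p = 0.0622 in limma). Its rise in Snail was 0.57 ± 0.13 (SE, n = 2; adjusted p = 0.0425). RPL18 had the widest gap between the 2 Snail samples of all members, at 1.07 and 0.28, with 1 array at -0.35 and the other 3 between 0.91 and 1.15, and its mean of 0.67 did not pass (adjusted p = 0.0774 in limma). It stood at -0.58 and -0.22 in Slug and -0.60 and -0.67 in E47. RPL7A, RPL10, RPL27A and RPL37 passed in no comparison, with Slug values of -0.02, -0.18, -0.19 and -0.06. The 3 clones of RPL37 differed. In Slug 2 of them had means of -0.24 and 0.08, and in Snail 0.31 and 0.36. The third had values on 3 of 4 arrays in Slug and in Snail. Both arrays were there for sample 1 alone, at 0.01 in Slug and -0.46 in Snail.

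RPL22 and RPL35A kept their calls in Slug under every alternative that could test them. RPL10A lost its call without Slug sample 1 or 2, RPL11 and RPL36AL without sample 1, where the estimate is the value of the sample that remains, and RPL11 also with arrays scaled to 1 spread. RPL31 lost its call in Snail without either sample of Snail, without either sample of E47, on the arrays of either dye alone, and where 1 of 2 arrays was enough. With the arrays titled Cy3 alone, RPL10A, RPL11 and RPL36AL did not pass in Slug.

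Between Snail and Slug 6 of 11 large subunit genes were higher in Snail and none lower (all genes 4.08% and 9.14%). The difference was 1.43 ± 0.19 for RPL35A (SE, n = 2; adjusted p = 0.00917), 1.42 ± 0.23 for RPL36AL (adjusted p = 0.012) and 1.10 ± 0.18 for RPL22 (adjusted p = 0.0114). RPL18 differed by 1.07 (adjusted p = 0.0401), RPL31 by 0.99 (adjusted p = 0.0179) and RPL10A by 0.74 (adjusted p = 0.0319). RPL11 differed by 0.83 and did not pass (adjusted p = 0.051 in limma). With the arrays titled Cy3 alone none of the 11 passed, while 9 of 11 were still higher in Snail, and the difference was 0.91 for RPL35A, 0.53 for RPL18 and 0.47 for RPL10A. Without Snail sample 2 only RPL18 (1.47) passed, and without Snail sample 1 RPL18 was at 0.68 and did not. The call of RPL10A was lost without any 1 of the 6 samples. That of RPL18 was also lost without Slug sample 1, without either E47 sample and with arrays scaled to 1 spread. That of RPL31 was lost without either Snail sample, without Slug sample 2 and on the arrays of either dye alone. With the sign of Snail or of Slug turned, RPL22 and RPL35A passed and the other large subunit genes did not.

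**Figure D2:**
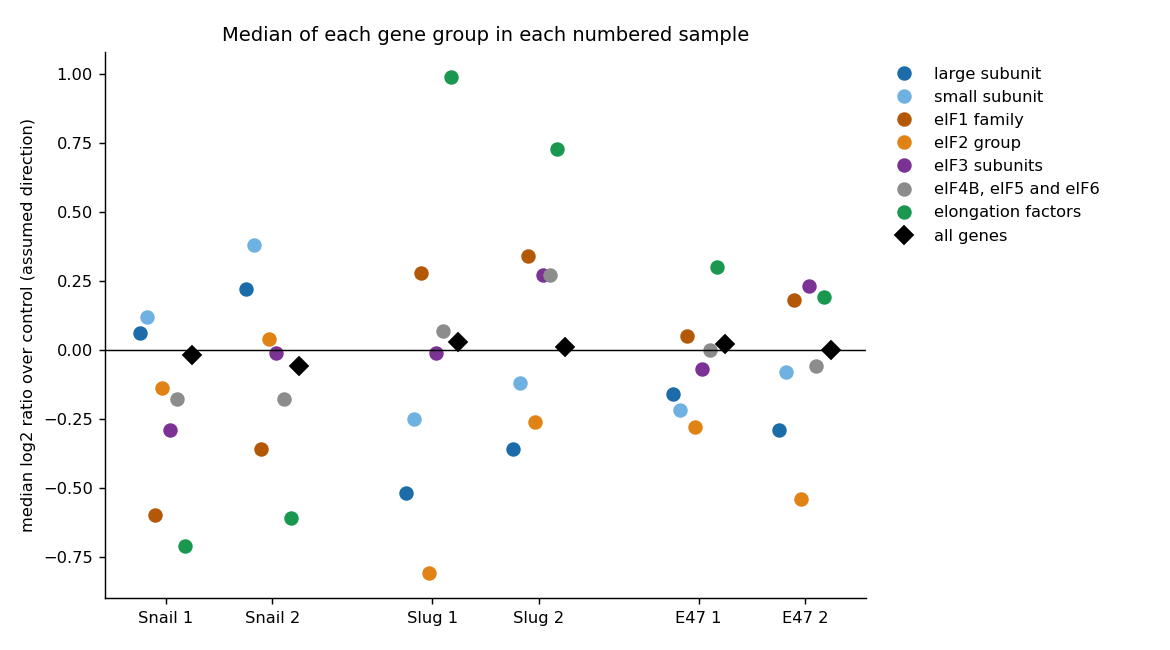
Median log2 ratio over the control (y axis, assumed direction) of each group of members in each of the 6 numbered samples, with the median of all genes as black diamonds. The large subunit median is 0.06 and 0.22 in the Snail samples, -0.52 and -0.36 in the Slug samples and -0.16 and -0.29 in the E47 samples.

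Of the 9 small subunit proteins tested in Snail, 1 rose and 1 fell (all genes 2.15% and 5.07%). None of 8 tested in Slug or 7 in E47 passed, where 3 and 2 had an unadjusted p under 0.05 in limma (all genes 36.2% and 20.4%). In Snail 7 of 9 tested lay above the control (median 0.21), in Slug 3 of 8 (median -0.17) and in E47 2 of 7 (median -0.19). With both arrays of a sample needed, RPS16 could be tested in no comparison and RPS15A in Snail alone, since values were missing on some arrays. With 1 of 2 arrays enough, 10 small subunit genes were tested in Slug and 1 of them fell. RPS7, RPS13, RPS15A, RPS19 and RPS24 passed in no comparison, with values against the control from -0.41 to 0.38.

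RPS27L (Entrez 51065), a copy of RPS27 known as a target of p53, had the highest rise of all members in Snail. It stood at 1.08 and 1.47 in Snail, 0.43 and 0.20 in Slug and 0.25 in E47 2. For E47 1 only 1 of 2 arrays had a value. The Snail arrays lay between 0.91 and 1.69, and every Slug and E47 array with a value lay at 0.50 or below. The rise in Snail was 1.28 ± 0.15 (SE, n = 2; adjusted p = 0.00514), which is 2.42-fold. Its call was lost without Snail sample 2 (1.08). RPS27L was read by 1 spot of 1 clone, and signal from RPS27 cannot be told apart from it where that clone binds both. RPS21 (Entrez 6227), a small subunit protein, had the largest fall in Snail, at -0.77 and -1.33, and stood at -0.25 and -0.11 in Slug and -0.21 and 0.18 in E47. The fall was -1.05 ± 0.17 (SE, n = 2; adjusted p = 0.0104), and it did not pass without Snail sample 2 (-0.77) or with the arrays titled Cy3 alone. RPS21 was read by 7 spots of 1 clone, whose means in Snail ran from -1.42 to -0.26, so the spots differed in size and all lay below the control.

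RPS6 (Entrez 6194), the small subunit protein that the S6 kinases phosphorylate, lay above the control on all 4 Snail arrays and below it on all 4 arrays of Slug and of E47. Its samples stood at 0.16 and 0.45 in Snail, -0.52 and -0.30 in Slug and -0.23 and -0.39 in E47. No comparison with the control passed, and the difference between Snail and Slug was 0.71 ± 0.19 (SE, n = 2; adjusted p = 0.0457). Both of its clones lay above the control in Snail (0.41 and 0.20) and below it in Slug (-0.56 and -0.25). RPS14 had the widest gap between the 2 Slug samples, at -0.29 and 1.07, where 1 array of sample 2 stood at 2.32 and the other at -0.17. Between Snail and Slug RPS27L was higher in Snail by 0.96 (adjusted p = 0.0318) and RPS21 lower by -0.87 (adjusted p = 0.0494 in limma). The call of RPS21 was kept by 3 of 15 alternatives, and was lost without any 1 of the 6 samples, with arrays centred or scaled to 1 spread and where 1 of 2 arrays was enough. The call of RPS6 was lost without any 1 of the 6 samples, with arrays scaled and where 1 of 2 arrays was enough, and that of RPS27L without any 1 of the Snail or Slug samples, and all 3 were lost on the arrays of either dye alone, with differences between 0.57 and 1.19 in size over all alternatives.

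The eIF1 family here is a grouping by name, after factors that help the small subunit find the start codon. Of its 4 genes, 2 rose and 1 fell in Slug (all genes 12.2% and 9.62%). None passed in Snail or in E47, where 3 of 4 and 1 of 3 had an unadjusted p under 0.05 in limma (all genes 24.3% and 20.4%). EIF1 (Entrez 10209), which guards the choice of start codon, stood at 0.47 and 0.81 in Slug, -0.61 and -0.39 in Snail and 0.05 and 0.14 in E47. EIF1B (Entrez 10289), its close relative, stood at 0.63 and 0.91 in Slug, -0.59 and -0.10 in Snail and 0.31 in E47 2. The 4 Slug arrays lay above the control for both genes and above every Snail array. The rise in Slug was 0.64 ± 0.14 for EIF1 (SE, n = 2; adjusted p = 0.015) and 0.77 ± 0.16 for EIF1B (adjusted p = 0.0184). The products of the 2 genes are alike, so a clone of one may also bind mRNA of the other.

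EIF1AX (Entrez 1964), which works beside EIF1 during scanning, lay below the control on every array. It stood at -1.12 in both Slug samples, -0.89 and -0.33 in Snail and -0.44 and -0.95 in E47. The fall was -1.12 ± 0.18 in Slug (SE, n = 2; adjusted p = 0.00491 in limma), 2.17-fold. Its values of -0.61 in Snail (adjusted p = 0.0797) and -0.69 in E47 (adjusted p = 0.0662) did not pass in limma. The 2 Slug samples were alike, so the SE of 0.18 comes from the rest of the fit. EIF1AD, named for a domain of the same factor, passed in no comparison, with means of -0.32 in Snail, -0.02 in Slug and 0.19 in E47.

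The call of EIF1AX in Slug held under every alternative run. EIF1 lost its call without Slug sample 2 and EIF1B without either Slug sample, and both lost it with arrays scaled to 1 spread and with the arrays titled Cy5 alone, EIF1 also with those titled Cy3 alone. Between Snail and Slug, EIF1 was lower in Snail by -1.13 ± 0.19 (SE; adjusted p = 0.0132 in limma) and EIF1B by -1.12 ± 0.23 (adjusted p = 0.0265 in limma). The first was lost without Snail sample 1 and with the arrays titled Cy3 alone. The second was lost without either Snail sample, without Slug sample 2, on the arrays of either dye alone and with arrays scaled to 1 spread.

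Of the eIF2 group, 3 of 6 tested fell in Slug and none rose (all genes 9.62% and 12.2%). In E47 1 of 6 fell (all genes 1.49%). None of the group passed in Snail, where 1 of 6 had an unadjusted p under 0.05 in limma (all genes 24.3%). The factor eIF2 carries the initiator tRNA, eIF2B reloads it with GTP, and kinases such as EIF2AK2 halt it by phosphorylating its alpha subunit. EIF2S1 (Entrez 1965), that alpha subunit, stood at -1.26 and -1.13 in Slug, -0.70 and -0.62 in E47 and -0.27 and 0.21 in Snail. The 4 Slug arrays (-1.34 to -0.99) lay below the E47 arrays (-0.88 to -0.51), and those below the Snail arrays (-0.30 to 0.22). For EIF2S1, Slug against E47 (-0.53, adjusted p = 0.26) and Snail against E47 (0.63, adjusted p = 0.134) did not pass in limma. Its fall was -1.19 ± 0.14 in Slug (SE, n = 2; adjusted p = 0.002), which is 2.28-fold, and -0.66 ± 0.14 in E47 (adjusted p = 0.0392). It was the member that passed in E47, and it was higher in Snail than in Slug by 1.16 ± 0.20 (adjusted p = 0.014 in limma).

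EIF2A (Entrez 83939), a separate factor that can deliver tRNA without eIF2, fell in Slug to -1.13 and -0.80, a mean of -0.96 ± 0.25 (SE; adjusted p = 0.0276 in limma). In E47 it had the widest gap between samples of all members, 0.42 and -0.70, with arrays from -0.92 to 0.98. EIF2AK2 (Entrez 5610), the kinase PKR that is switched on by double-stranded RNA, lay below the control on every array as a mean of 2 clones. In Slug the mean was -0.62 ± 0.17 (SE; adjusted p = 0.0332 in limma), but the clones differed: 1 stood at -1.26 and -1.25 and the other at -0.03 and 0.06. The same clones stood at -1.48 and -0.52, and at 0.02 and 0.30, in Snail. EIF2S3, the gamma subunit, had -0.97 and 0.20 in Slug, and EIF2B4 and EIF2B5, subunits of eIF2B, had means of 0.23 and -0.03 there. In E47 these 3 genes had -0.39, -0.41 and -0.36 and did not pass. EIF2S2, the beta subunit, could not be tested.

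EIF2S1 kept its call in Slug under every alternative run, and lost it in E47 without either E47 sample and on the arrays of either dye alone. EIF2A and EIF2AK2 lost their calls in Slug without either Slug sample and with arrays scaled to 1 spread. EIF2A also lost it with the arrays titled Cy3 alone, and EIF2AK2 on the arrays of either dye alone, with probes that have a value on all 12 arrays and with the median over spots in place of the mean over clones. The difference of EIF2S1 between Snail and Slug was lost without Snail sample 2 (0.93) and with the arrays titled Cy3 alone.

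**Figure D3:**
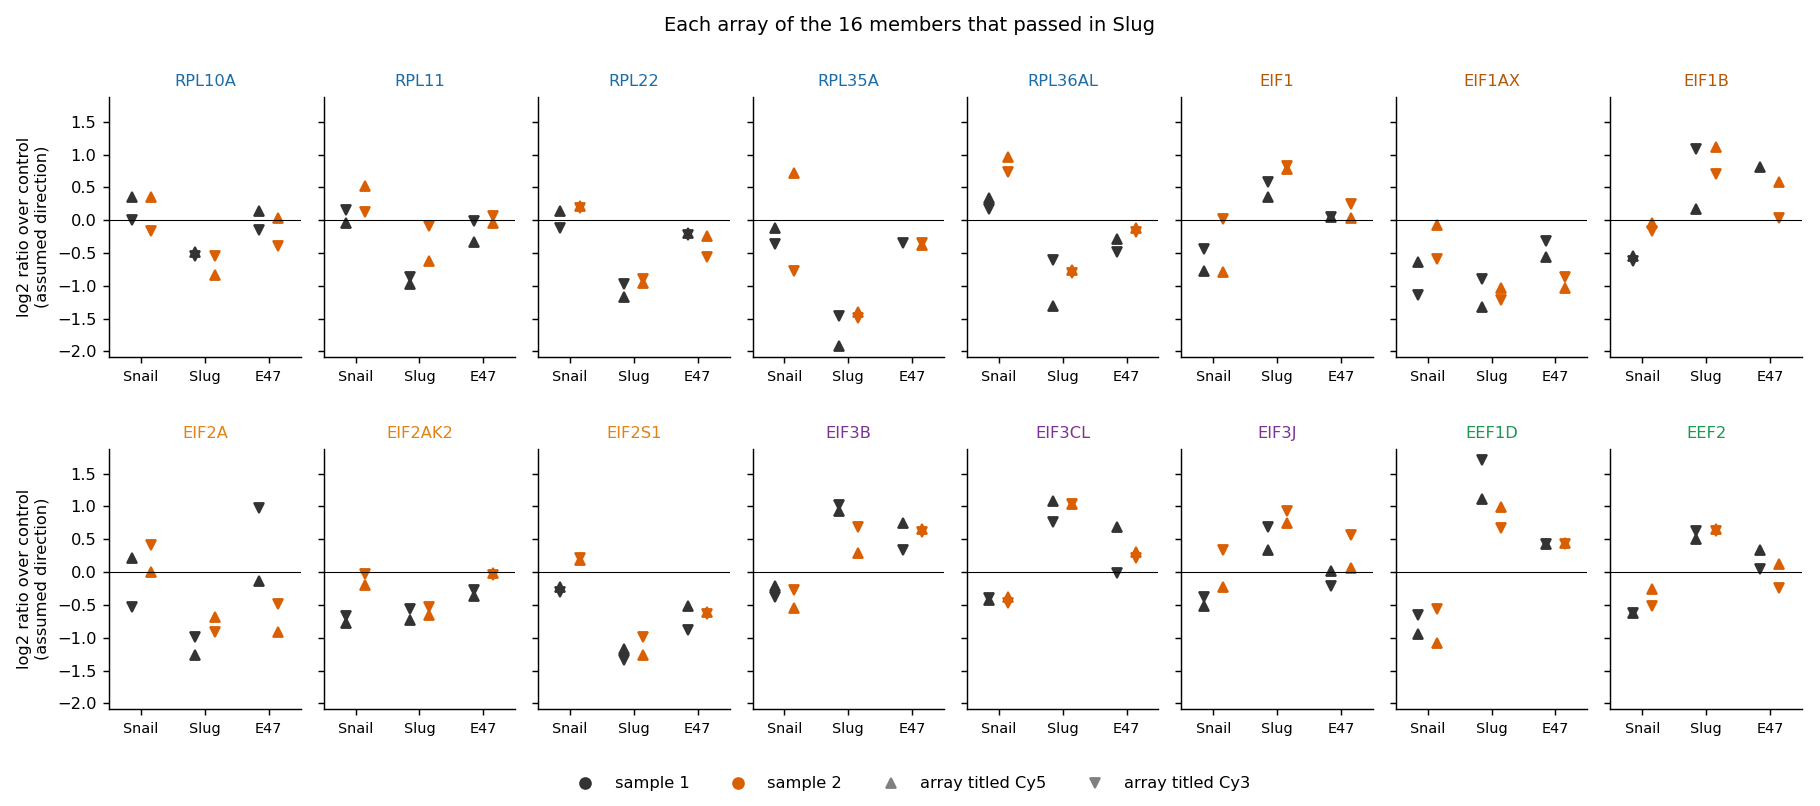
Log2 ratio over the control (y axis, assumed direction) on every array for the 16 members that passed in Slug; grey is sample 1, orange sample 2, and triangles point up for arrays titled Cy5 and down for Cy3. The 4 Slug arrays overlap those of Snail for EIF1AX and EIF2AK2 and not for the other genes shown. The genes are shown because they passed in Slug, and such overlap was not counted over all genes.

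The eIF3 subunits form the scaffold that holds the small subunit during initiation. Of these, 3 of 9 rose in Slug and none fell (all genes 12.2% and 9.62%). In Snail 1 rose (all genes 2.15%). None of them passed in E47, where 3 of 9 had an unadjusted p under 0.05 in limma (all genes 20.4%). EIF3CL (Entrez 728689) stood at 0.92 and 1.04 in Slug, -0.41 and -0.43 in Snail and 0.33 and 0.27 in E47. Its Slug arrays lay between 0.77 and 1.08 and its Snail arrays between -0.47 and -0.38. The rise in Slug was 0.98 ± 0.12 (SE, n = 2; adjusted p = 0.00182), which is 1.97-fold. EIF3CL is a near-identical copy of EIF3C in the human genome, so a clone under this name cannot be told apart from the subunit EIF3C. EIF3B (Entrez 8662), a core subunit, stood at 0.98 and 0.48 in Slug, -0.29 and -0.41 in Snail and 0.54 and 0.63 in E47, on 1 side of the control on all 4 arrays of each. The rise in Slug was 0.73 ± 0.15 (adjusted p = 0.0121 in limma), and 0.59 in E47 did not pass (adjusted p = 0.0626 in limma). EIF3J (Entrez 8669), a loosely bound subunit, rose in Slug by 0.68 ± 0.17 (adjusted p = 0.0271 in limma), with samples at 0.51 and 0.84.

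EIF3K (Entrez 27335), a small peripheral subunit, passed in Snail, where its samples stood at 0.85 and 0.81. It stood at 0.35 and 0.32 in Slug and -0.31 and 0.21 in E47. The rise in Snail was 0.83 ± 0.15 (SE, n = 2; adjusted p = 0.0145), on arrays between 0.42 and 1.21. With the arrays titled Cy3 alone it was 0.54 and did not pass. EIF3H had -0.53 and -0.45 in Snail (adjusted p = 0.128 in limma), and EIF3E, EIF3F and EIF3G had Snail means of -0.06, 0.08 and -0.06. EIF3A, the largest subunit, had 2 clones on opposite sides of the control in Slug, at 0.37 and 0.75 and at -0.74 and -1.28. Its mean of -0.22 there describes neither. In E47 the same clones had means of 0.10 and -0.92, so the gene's mean of -0.41 describes neither. EIF3A is 1 of the 3 counted above in E47 (unadjusted p = 0.0229 in limma). With probes that have a value on all 12 arrays the first clone alone was left, at 0.56 in Slug, and passed there.

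EIF3CL kept its call in Slug under every alternative run. EIF3B lost its call in Slug without sample 1 (0.48) and with the arrays titled Cy5 alone, and EIF3J without either Slug sample, on the arrays of either dye alone and with arrays scaled to 1 spread. EIF3K lost its call in Snail without sample 1 or sample 2. Between Snail and Slug, EIF3CL was lower in Snail by -1.40 ± 0.16 (SE; adjusted p = 0.00501 in limma) and EIF3B by -1.08 ± 0.21 (adjusted p = 0.0182 in limma). EIF3CL kept that call throughout, and EIF3B lost it without either Snail sample, without Slug sample 1 and on the arrays of either dye alone. EIF3J differed by -0.87 and did not pass (adjusted p = 0.0512 in limma).

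**Figure D4:**
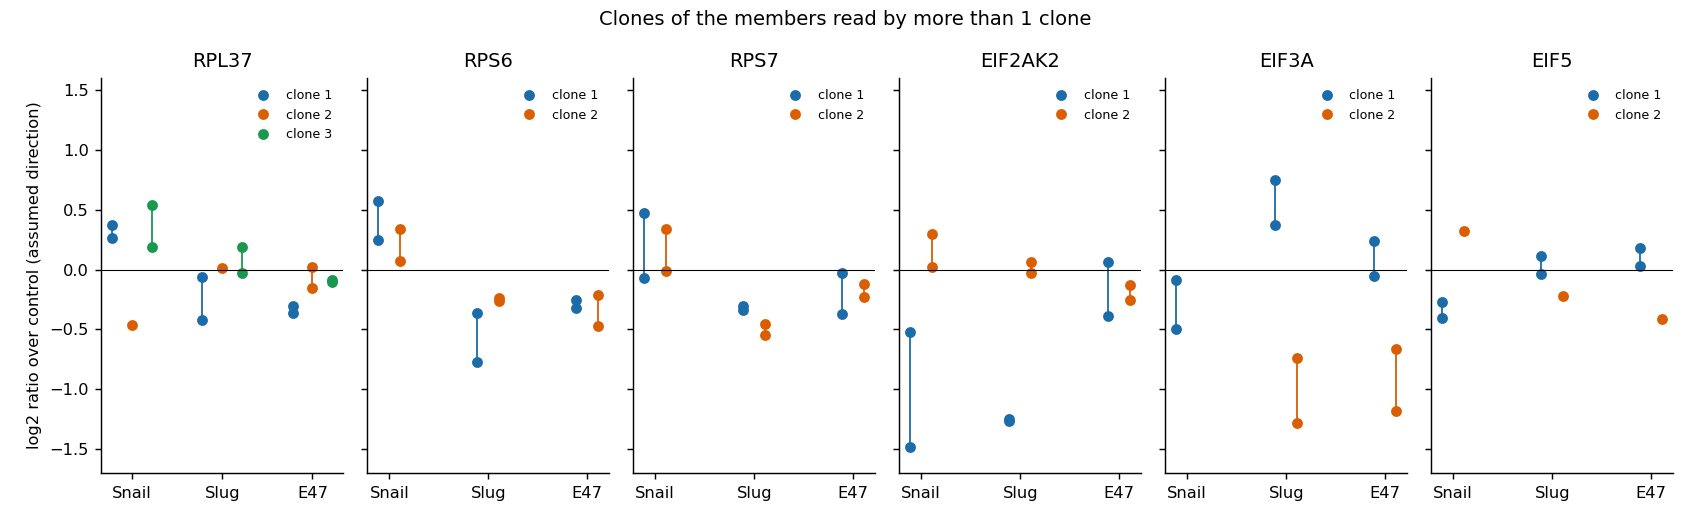
Log2 ratio over the control (y axis, assumed direction) of each clone of the 6 members read by more than 1 clone; points are the numbered samples, and a line joins samples 1 and 2. The 2 clones of EIF2AK2 stand at -1.26 and 0.02 in Slug on average and those of EIF3A at 0.56 and -1.01, while the clones of RPS6 and of RPS7 lie on the same side in each transfectant.

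EIF4B, EIF5, EIF5A2, EIF5B and EIF6 passed in no comparison, and 1 of 4 in Snail, 1 of 5 in Slug and 0 of 4 in E47 had an unadjusted p under 0.05 in limma (all genes 24.3%, 36.2% and 20.4%). EIF4B assists the helicase that unwinds mRNA, EIF5 triggers GTP hydrolysis on eIF2, EIF5B joins the subunits and EIF6 keeps free large subunits from joining too early. The 4 tested in Snail lay below the control, from -0.48 (EIF5B) to -0.11 (EIF5), and in Slug 4 of 5 lay above it, up to 0.39 (EIF6, adjusted p = 0.0651 in limma). The 2 clones of EIF5 differed in Snail: 1 stood at -0.40 and -0.27, and the other at 0.32 in sample 1. That other clone had values on 3 of 4 arrays there, so sample 2 was incomplete. EIF5B stood at -0.36 and -0.60 in Snail and 0.20 and 0.25 in Slug, a difference of -0.71 ± 0.21 (SE; adjusted p = 0.0643 in limma). EIF5A2 had no test in Snail or E47 because values were missing.

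Both elongation factors rose in Slug (all genes 12.2%), and 1 of them fell in Snail (all genes 5.07%). EEF1D (Entrez 1936), a subunit of the complex that recharges the tRNA carrier eEF1A with GTP, stood at 1.41 and 0.83 in Slug, -0.80 and -0.82 in Snail and 0.42 and 0.43 in E47. The 4 arrays of each transfectant lay on 1 side of the control: 0.67 to 1.70 in Slug, 0.42 to 0.44 in E47 and -1.08 to -0.57 in Snail, with no overlap between the 3. The difference between Slug and E47 was 0.69 and did not pass (adjusted p = 0.186 in limma). The rise in Slug was 1.12 ± 0.15 (SE, n = 2; adjusted p = 0.00297), which is 2.17-fold. The fall in Snail was -0.81 ± 0.15 (adjusted p = 0.0197 in limma), which is 1.75-fold, and 0.43 in E47 did not pass (adjusted p = 0.164 in limma). EEF2 (Entrez 1938), which moves the ribosome along the mRNA, stood at 0.57 and 0.63 in Slug, -0.63 and -0.39 in Snail and 0.19 and -0.06 in E47. Its rise in Slug was 0.60 ± 0.13 (adjusted p = 0.0159 in limma), and -0.51 in Snail did not pass (adjusted p = 0.0574 in limma).

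EEF1D had the largest difference between Snail and Slug of all members, -1.93 ± 0.22 (SE, n = 2; adjusted p = 0.00501), or 3.80-fold, and that call held under every alternative run. EEF2 differed by -1.11 ± 0.18 (adjusted p = 0.0124 in limma), lost without Snail sample 1. EEF1D was also the member that passed between Snail and E47, at -1.24 ± 0.22 (adjusted p = 0.0357 in limma), lost without either sample of Snail or of E47 and with the arrays titled Cy3 alone. Its rise in Slug held under every alternative, and its fall in Snail was lost without sample 1 or sample 2 and with the arrays titled Cy3 alone. EEF2 lost its call in Slug without either Slug sample, with arrays scaled to 1 spread and on the arrays of either dye alone. These 2 directions against each other rest on the signs of both transfectants, since with 1 of them turned neither gene passed between Snail and Slug.

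**Figure D5:**
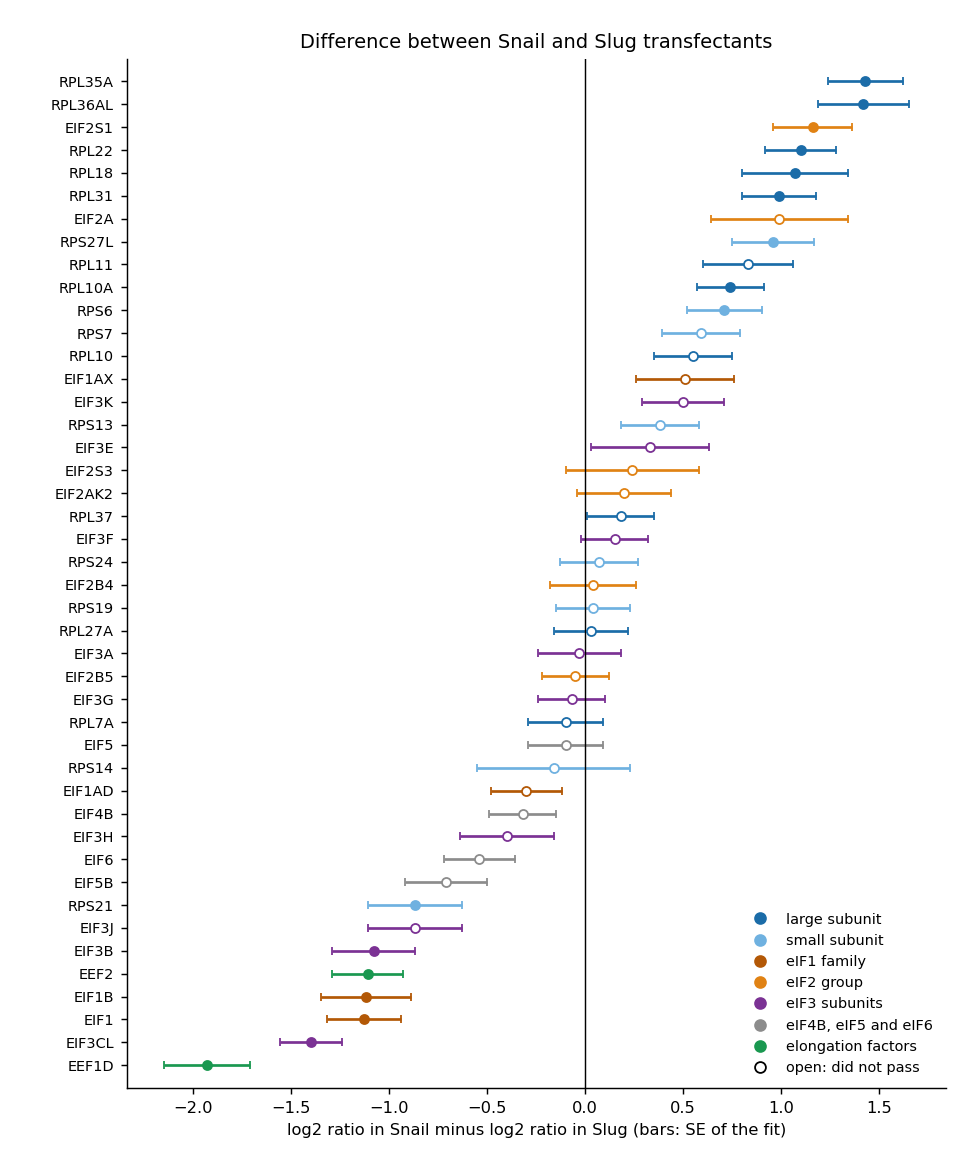
Difference of the log2 ratios, Snail minus Slug (x axis), for the 44 members tested, in order of size; bars are the SE of the fit, filled points passed adjusted p of 0.05, and colours give the role. Large subunit genes in dark blue fill most of the top, with RPL35A at 1.43, and the bottom holds EEF1D at -1.93, EIF3CL at -1.40 and EIF1 at -1.13.

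Some values against the control passed under an alternative alone. They are listed here for the members named by the rule given with the processing, and other members that passed in this way are not listed. With the 12 arrays entered singly in the fit, EIF1, EIF1AX, EIF2AK2, EIF3CL, RPL18, RPL36AL and EEF2 passed in Snail, RPL31 and RPS6 in Slug, and EIF1AX, EIF3B and RPL18 in E47. With probes that have a value on all 12 arrays, EEF2 passed in Snail, EIF3A in Slug, and EIF1AX and EIF3B in E47. With arrays scaled to 1 spread, RPL36AL passed in Snail and EIF1AX and EIF3B in E47, and with arrays centred RPL31 passed in Slug. EIF1 and RPL18 passed in Snail with the arrays titled Cy5 alone, RPS14 passed in Slug without sample 1, and EIF3B passed in E47 without either Slug sample.

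Other genes of the pathway were read from 4 lists. Of all genes tested, 7.22% passed in Snail, 21.8% in Slug and 5.30% in E47. Of 5 ribosome-associated and termination factors, 1 fell in Snail, BTF3 (-1.10, adjusted p = 0.00567 in limma), a partner of nascent chains at the ribosome, and 1 rose in E47, TPT1 (0.96, adjusted p = 0.0301 in limma), which shares the pyrimidine tract of ribosomal mRNAs. Medians of that list were -0.47 in Snail, -0.05 in Slug and 0.32 in E47. Of the ribosome biogenesis genes 1 of 11 tested fell in Snail, the nucleolar helicase DDX21 (-0.87, adjusted p = 0.0317 in limma). POLR1C, a subunit of RNA polymerases I and III, fell in Slug (-0.83, adjusted p = 0.00508 in limma) as 1 of 8 and in E47 (-0.59, adjusted p = 0.0425 in limma) as 1 of 10. None of these genes rose.

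Of the tRNA synthetase genes none of 8 tested in Snail and none of 9 in E47 passed. In Slug 2 of 8 rose, GARS1 (0.97) and WARS1 (0.64), which load glycine and tryptophan, and 1 fell, AIMP1 (-0.90), a scaffold of the synthetase complex, with samples at -1.44 and -0.36. Of the S6 kinases and regulators of translation, RHEB, the activator of mTOR, rose in Snail (0.66), and MYC (-1.63), ATF4 (-0.95) and MTOR (-0.68) fell, as 4 of 13. In Slug ATF4, the factor translated when eIF2 is phosphorylated, rose (0.81), as did TSC1, an inhibitor of mTOR signalling (0.82), and AKT2 (0.59), while AKT1 fell (-0.79), as 4 of 14. In E47 1 of 14 passed, ATF4, which was lower (-0.65). The shares of all genes that passed were 7.22% in Snail, 21.8% in Slug and 5.30% in E47, beside which these lists are short.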

How the data were processed

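The deposited table holds log2 ratios of the 2 channels for 13056 probes on 12 arrays, with array medians between -0.0634 and 0.0594 as deposited. No source used here states the numerator, scanner, background correction or the reason for empty cells. Of the probes, 8047 had 1 gene symbol in the platform annotation, 276 several and 4733 none; only the first were used.

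Spots of a clone were averaged, then clones of a gene, then the 2 arrays of a numbered sample (both needed). limma 3.58.1 in R 4.3.3 fitted the 3 transfectants together without an intercept (at most 3 residual degrees of freedom, prior degrees of freedom 4.85, prior SD 0.203). Genes that lacked a sample, such as RPL35A and RPS27L in E47, had fewer residual degrees of freedom. Genes with both samples in each group were tested, two-sided, at an adjusted p of 0.05. The number of arrays limits the precision.

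Named with values are members that passed in 1 of 6 comparisons, those with 4 of 4 arrays on 1 side in each transfectant, those with clones on opposite sides, and the widest sample gap per transfectant. Other genes were named where they passed against the control. Members and lists were chosen with earlier results of these data known.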

Additional observations from a re-analysis of the deposited data

Results flagged for a closer look

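Between Snail and Slug the difference itself passed for 16 members (limma, adjusted p under 0.05, assumed signs). Higher in Snail were RPL35A (1.43), RPL36AL (1.42), EIF2S1 (1.16), RPL22 (1.10), RPL18 (1.07), RPL31 (0.99), RPS27L (0.96), RPL10A (0.74) and RPS6 (0.71). Lower in Snail were EEF1D (-1.93), EIF3CL (-1.40), EIF1 (-1.13), EIF1B (-1.12), EEF2 (-1.11), EIF3B (-1.08) and RPS21 (-0.87). EEF1D also differed between Snail and E47 (-1.24).

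In 6 of 72 sets of 4 arrays of a named member and transfectant, 1 array stood apart from the other 3, which is 8.33%. Over all genes it was 698 of 11787 sets, 5.92%, and chance gives about 1 in 20 sets of independent arrays, so the number of sets is not a result about the members. The widest was RPL18 on the Cy3 array of Snail 2, at -0.35, with the nearest other array at 0.91. In E47, EIF1 stood at 0.24 on the Cy3 array of sample 2 (nearest 0.05), RPL22 at -0.56 on the same array (nearest -0.24) and RPL37 at -0.11 on the Cy3 array of sample 1 (nearest -0.17). In Slug, EIF3CL stood at 0.77 on the Cy3 array of sample 1 (nearest 1.03) and RPS21 at 0.06 on the Cy3 array of sample 2 (nearest -0.23).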

How the results depend on the processing

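The 39 member values that passed kept their direction under all 15 alternatives that could test them, and 8 also kept their call: in Slug RPL22, RPL35A, EIF1AX, EIF2S1, EIF3CL and EEF1D, and between Snail and Slug EEF1D and EIF3CL. RPL35A, EIF1AX, EIF2S1 and EIF3CL were each read by 1 spot of 1 clone, so the median over spots could not change their log2 ratios. Leaving out a sample of Snail or E47 does not change a log2 ratio of Slug over the control. These alternatives therefore say little about such values. Counts of members that passed are given as Snail, Slug, E47, Snail against Slug, Snail against E47 and Slug against E47, where the reported counts are 5, 16, 1, 16, 1 and 0, and those of all genes 272, 885, 210, 486, 93 and 30. With the replicate number as a block, members came to 5, 16, 1, 17, 1 and 0 and all genes to 294, 903, 231, 519, 101 and 34. The block added, between Snail and Slug, RPL11 (0.83, adjusted p = 0.0303) and EIF3J (-0.87, adjusted p = 0.0215) and lost RPS21 (-0.87, adjusted p = 0.0604 in limma), and it changed no other member's call. Deviations of same-numbered samples correlated at 0.02 (Snail and Slug), 0.23 (Snail and E47) and -0.06 (Slug and E47). The labels do not say that a number marks a shared batch, and this was not settled by the correlations. Leaving out 1 replicate gave members from 0 to 6, 8 to 16, 0 to 2, 5 to 13, 0 to 4 and 0 to 1, and all genes from 34 to 345, 339 to 891, 26 to 275, 138 to 389, 3 to 137 and 8 to 27. A transfectant with 1 sample left is assumed to vary like the others. The lowest counts came without Snail replicate 2 for Snail and for Snail against Slug, without Slug replicate 1 for Slug, without E47 replicate 2 for Snail against E47 over all genes, and for E47 without E47 replicate 2 over all genes and without either E47 replicate over members.

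With the arrays titled Cy3 alone, members came to 1, 8, 0, 3, 0 and 0 and all genes to 56, 372, 42, 88, 1 and 4. With those titled Cy5 alone, members came to 7, 10, 0, 10, 2 and 0 and all genes to 222, 576, 207, 265, 39 and 29. With arrays scaled to 1 spread, members came to 6, 9, 3, 12, 6 and 0 and all genes to 396, 472, 363, 301, 182 and 21. Higher and lower genes then numbered 177 and 219 in Snail in place of 81 and 191, 223 and 140 in E47 in place of 151 and 59, 126 and 175 between Snail and Slug in place of 150 and 336, and 53 and 129 between Snail and E47 in place of 6 and 87. Centring alone gave 102 and 156 in Snail and 203 and 278 between Snail and Slug, and 2 members between Snail and E47, 1 in each direction. With all 12 arrays in the fit and the sample as a random block (correlation 0.01), members came to 14, 20, 4, 23, 14 and 2 and all genes to 585, 1221, 452, 833, 382 and 194. At that correlation the 2 arrays of a sample counted almost as separate samples, which they are not. Probes with a value on all 12 arrays gave 3 members in E47 and 5 between Snail and E47, and 156 genes between Snail and E47 and 50 between Slug and E47. With 1 of 2 arrays enough, members came to 2 between Snail and E47 and 1 between Slug and E47, and the median over spots gave 3 between Snail and E47. The causes were not tested. The ratios carry no signal intensity, so what dim spots limit could not be assessed.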
